A study of Homo sapiens with 6 samples.

Results

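Short segments of the RNA recovered with the splicing factor SF3B4 are described here: the intervals under 80 bp in the authors' mRNA peak lists. A segment was taken when its end minus its start, as deposited, was below 80. This held for 718 of 10960 segments in experiment RIP-1 and for 1480 of 10280 in RIP-2, or 2198 of 21240 in both lists. The members were chosen by a measured value, the interval length of the peak calls themselves, so length, score and counts by length are given as descriptions. The 6 libraries came from wild-type HEK293T cells, an immortalised human cell line from embryonic kidney with the SV40 large T antigen. In each of 2 RNA immunoprecipitation experiments (RIP-seq), 1 library was made with an antibody to SF3B4, 1 with non-specific IgG and 1 from input RNA. No treatment, genotype change or time course is named. Each list is 1 call per experiment, the IgG and input libraries can act only by way of the peak calls, and library depth is unknown.

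SF3B4 belongs to the SF3b complex of the U2 small nuclear ribonucleoprotein (snRNP), which holds the branch site upstream of an exon. METTL16, which the series title names as well, methylates adenosines in RNA. Internal exons are recognised by factors bound at both of their ends, and very short exons leave little room between those ends. A coding exon whose length is a multiple of 3 can be kept or skipped without shifting the reading frame. The label of these segments as exons could not be checked, because no gene annotation of the build, hg19, was used here. For the same reason genes are not named, segments are given by position, and their sequences are not shown. Positions are in hg19 with start and end as deposited.

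The short segments were a small part of either list and a larger part in RIP-2. They made up 6.55% of the RIP-1 list (95% Wilson interval 6.10 to 7.03) and 14.4% of the RIP-2 list (13.7 to 15.1). Their summed length was 41.1 kb in RIP-1, which is 0.775% of the bases in that list, and 75.1 kb or 2.52% in RIP-2. All intervals here treat segments as independent and cover counting error only. Neither the differences between length groups nor those between experiments were tested, because segments of 1 call are not replicates and each experiment has 1 list.

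A segment under 80 bp is narrower than any peak the authors left whole. The narrowest peak of the non-exon lists, which hold the remaining peaks of the same calls, was 206 bp wide in the RIP-1 call and 200 bp wide in the RIP-2 call. The short segments are therefore below the widths of whole peaks in these calls, and the sources used here do not state how the mRNA-list intervals were trimmed. RIP-2 also had the narrower intervals in general, with medians of 160 bp against 216 bp in the mRNA lists and 564 bp against 710 bp in the non-exon lists. The part of that in the larger share of short segments was not tested.

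Most short segments of RIP-1, but not of RIP-2, were 60 bp or longer. The median length was 63 bp in RIP-1 (interquartile range 49 to 71) and 56 bp in RIP-2 (36 to 69). Segments of 60 to 79 bp were 406 of the 718 in RIP-1 (56.5%, 52.9 to 60.1) and 642 of the 1480 in RIP-2 (43.4%, 40.9 to 45.9). At the other end, 74 RIP-1 segments were under 30 bp (10.3% of the short ones, 8.29 to 12.7) and 291 in RIP-2 (19.7%, 17.7 to 21.8). RIP-2 thus held more very short pieces, both in number and as a share. Segments of 1 to 9 bp numbered 21 in RIP-1 and 87 in RIP-2. No step stood at the limit itself: lengths of 79 and 80 bp were found 22 and 26 times in RIP-1 and 39 and 39 times in RIP-2.

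**Figure D1:**
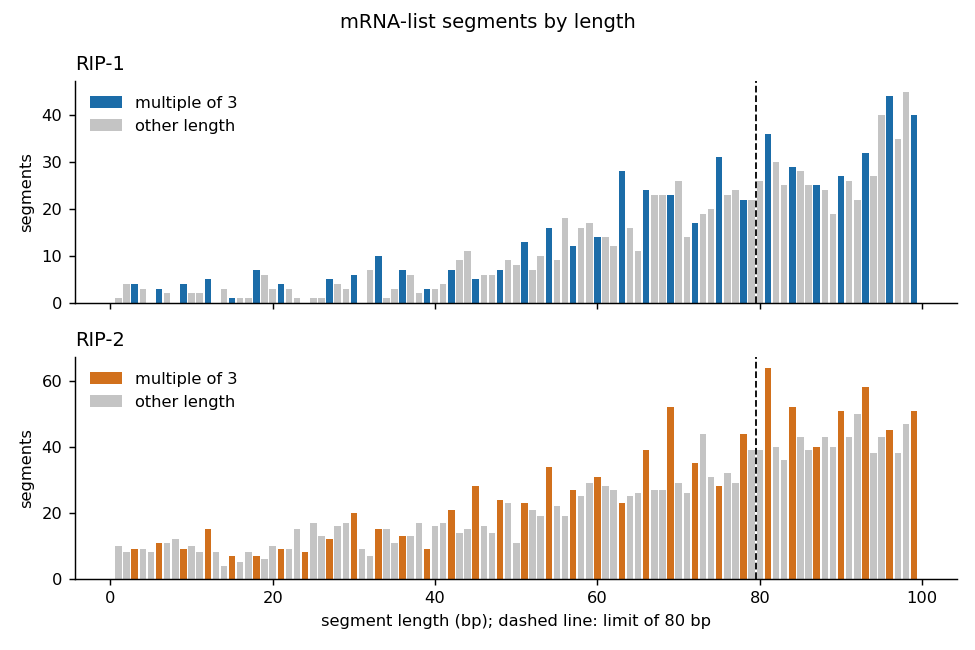
Number of mRNA-list segments at each length from 1 to 99 bp in RIP-1 (upper panel) and RIP-2 (lower panel). Coloured bars are multiples of 3, grey bars other lengths, and the dashed line marks the limit of 80 bp; counts grow towards the limit and several of the tallest bars, such as 75 bp in RIP-1 (31 segments) and 69 bp in RIP-2 (52 segments), are multiples of 3.

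With length taken as end minus start, multiples of 3 were the most common kind of length among the short segments. The base of the positions in the mRNA lists is not stated, and the direction depends on it: with 1 added to every length, as for positions that include both ends, 29.9% of the short segments in RIP-1 (26.6 to 33.4) and 29.7% in RIP-2 (27.4 to 32.1) were multiples of 3. The smallest end minus start was 1 in both lists, in 1 segment of RIP-1 and 10 of RIP-2. With both ends included, a 1 bp segment would have an equal start and end, which no segment had. The base was not tested further. All values that follow use end minus start. In RIP-1, 278 of 718 had such a length (38.7%, 35.2 to 42.3), 232 left a remainder of 1 (32.3%, 29.0 to 35.8) and 208 a remainder of 2 (29.0%, 25.8 to 32.4). In RIP-2 the numbers were 553 (37.4%, 34.9 to 39.9), 499 (33.7%, 31.4 to 36.2) and 428 (28.9%, 26.7 to 31.3). Equal use of the 3 remainders would give 33.3%, which lies below both intervals for multiples of 3 and above both for a remainder of 2. The whole lists had 37.1% in RIP-1 and 37.0% in RIP-2, so the share among the short segments was near that background.

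The excess over 33.3% was not seen in every class of length. Segments of 60 to 79 bp had 39.2% in RIP-1 (34.5 to 44.0) and 39.3% in RIP-2 (35.5 to 43.1). Segments of 30 to 59 bp had 36.1% (30.3 to 42.4) and 39.1% (35.1 to 43.3). Under 30 bp the values were 33 of 74 in RIP-1 (44.6%, 33.8 to 55.9) and 87 of 291 in RIP-2 (29.9%, 24.9 to 35.4), with intervals that overlap. The intervals for 30 to 59 bp in RIP-1 and for under 30 bp in RIP-2 take in 33.3%. Among the longer classes, segments of 300 bp or more were also close to it, with 34.4% (33.0 to 35.8) and 34.1% (32.4 to 35.9). The most frequent short lengths were 75 bp (31 segments), 63 bp (28) and 70 bp (26) in RIP-1, and 69 bp (52), 73 bp (44) and 78 bp (44) in RIP-2. Of these 6 lengths, 70 and 73 bp are not multiples of 3.

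**Figure D2:**
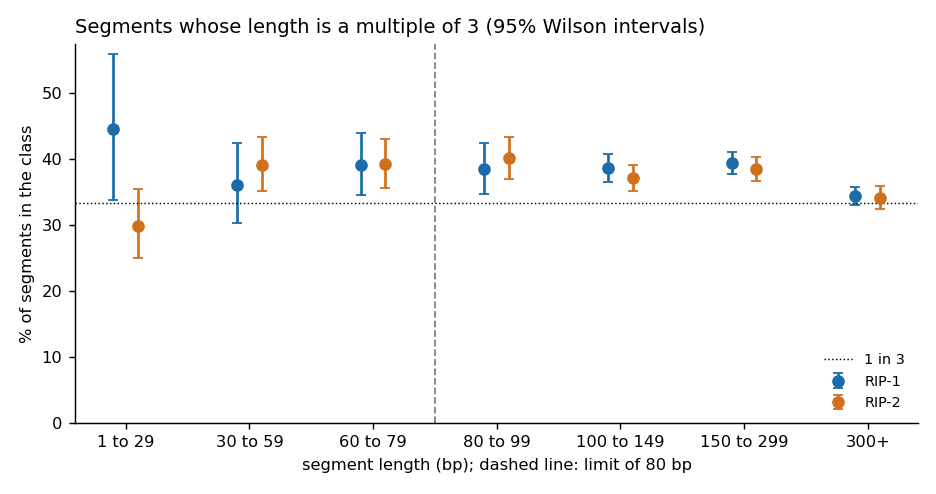
Percent of segments whose length is a multiple of 3, by class of length, in RIP-1 (blue) and RIP-2 (orange), with 95% Wilson intervals. The dotted line is the 33.3% of equal remainders and the dashed line the limit of 80 bp; classes from 30 to 299 bp lie between 36.1% and 40.1%, and the 1 to 29 bp class lies at 44.6% (RIP-1) and 29.9% (RIP-2).

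The scores of short segments were modest. The score is the authors' own value for the peak and behaves as 10 times the negative log10 of the peak caller's p-value; it belongs to the peak, which may be wider than the segment. The median was 69.7 in RIP-1 (interquartile range 59.2 to 96.0), against 81.0 for the longer segments, and 77.3 in RIP-2 (60.7 to 112), against 80.1. Segments of 80 to 149 bp, the nearest in width, had medians of 73.2 and 78.2. In RIP-1, 35.9% of the short segments (32.5 to 39.5) stood in the upper 50% of the list by score, and in RIP-2 47.2% (44.6 to 49.7). Within the short segments, length and score were nearly unrelated, with a Spearman rho of 0.0225 over 718 segments in RIP-1 and 0.0237 over 1480 in RIP-2. Over all segments of a list, RIP-1 had a rho of 0.211 and RIP-2 of 0.0625. Segments of a call share its libraries and control, so these are descriptions.

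A few short segments scored high. None of the 5 highest of either list overlapped the other mRNA list, where 6.41% of all RIP-1 segments and 6.91% of all RIP-2 segments did, so a set of 5 with no overlap shows nothing particular to them. In RIP-1 the first was a 64 bp segment at chr1:1737913-1737977 (minus strand), with a score of 1481 and rank 124 of 10960. A 78 bp segment at chr19:8539050-8539128 (plus strand) followed with 1162. The next were 68 bp on chromosome 7 from 77265098 (score 878), 56 bp on chromosome 1 from 205693053 (812) and 52 bp on chromosome 9 from 100774702 (795). Of these 5, the segments on chromosomes 1, 7 and 9 had a same-strand neighbour at gaps of 1031 to 3718 bp, and the one on chromosome 19 had none within 5 kb. Over the whole RIP-1 list 26.9% had a same-strand neighbour within 5 kb, but 5 segments picked by score are too few for a comparison. No RIP-2 mRNA-list segment of the same strand lay within 5 kb of any of them. Only 12.9% of all RIP-1 segments had one, so this shows nothing particular to the 5.

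In RIP-2 the highest was a 71 bp segment at chrX:49227285-49227356 (plus strand), with a score of 1035 and rank 8 of 10280. A RIP-1 segment lay 1040 bp from it without touching it. Next came a 60 bp segment at chr22:38765990-38766050 (minus strand) with a score of 1014 and rank 9. The others scored 452 (68 bp, chromosome 17 from 19151706), 431 (31 bp, chromosome 19 from 55177042) and 359 (45 bp, chromosome 3 from 142729656). Scores of 200 or more were reached by 30 short segments of RIP-1 and by 83 of RIP-2. Scores of 3100 or more, which 58 and 2 longer segments had, were reached by none.

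Segments of 1 to 9 bp had a median score above that of all short segments in RIP-1 and below it in RIP-2. In RIP-1 the shortest was 1 bp on chromosome 10 from 1142109 (score 77.5). Of the 4 RIP-1 segments of 2 bp, those named are on chromosome 6 from 111320988 (150) and on chromosome 9 from 45734894 (130). In RIP-2, 10 segments had a length of 1 bp, and the 3 with the highest scores began at 81601877 on chromosome 10 (score 156), 848774 on chromosome 5 (122) and 142255042 on chromosome 3 (106). The median score was 79.4 (RIP-1) and 71.6 (RIP-2) at 1 to 9 bp. It was 68.6 and 74.0 for all segments under 30 bp, beside 69.7 and 77.3 for all short segments.

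Short segments were found on every chromosome except Y in both experiments. Chromosome Y had only 19 segments of any length in RIP-1 and 2 in RIP-2, too few to read its lack of short ones. RIP-2 had the larger share of short segments on all 23 other chromosomes, and on 16 of them the intervals of the experiments did not overlap. The lists as a whole had 14.4% in RIP-2 and 6.55% in RIP-1, so these counts repeat that difference and show nothing particular to a chromosome. In RIP-1 the share was highest on chromosome 21 (14 of 136, 10.3%, 6.23 to 16.5), chromosome 10 (9.47%, 7.16 to 12.4) and chromosome 13 (9.09%, 6.08 to 13.4), and lowest on chromosome 16 (12 of 385, 3.12%, 1.79 to 5.37). In RIP-2 it was highest on chromosome 22 (41 of 183, 22.4%, 17.0 to 29.0), chromosome 19 (18.5%, 14.5 to 23.3) and chromosome 16 (55 of 306, 18.0%, 14.1 to 22.7), and lowest on chromosome 6 (9.63%, 7.58 to 12.2). Chromosome 16 was thus last in RIP-1 and among the 3 highest in RIP-2. Over the 23 chromosomes the shares of the experiments had a Spearman rho of -0.161, a description over points that rest on different numbers of segments. By number, chromosomes 2 and 1 held the most in RIP-1 (76 and 72), and chromosomes 1 and 2 in RIP-2 (164 and 123).

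**Figure D3:**
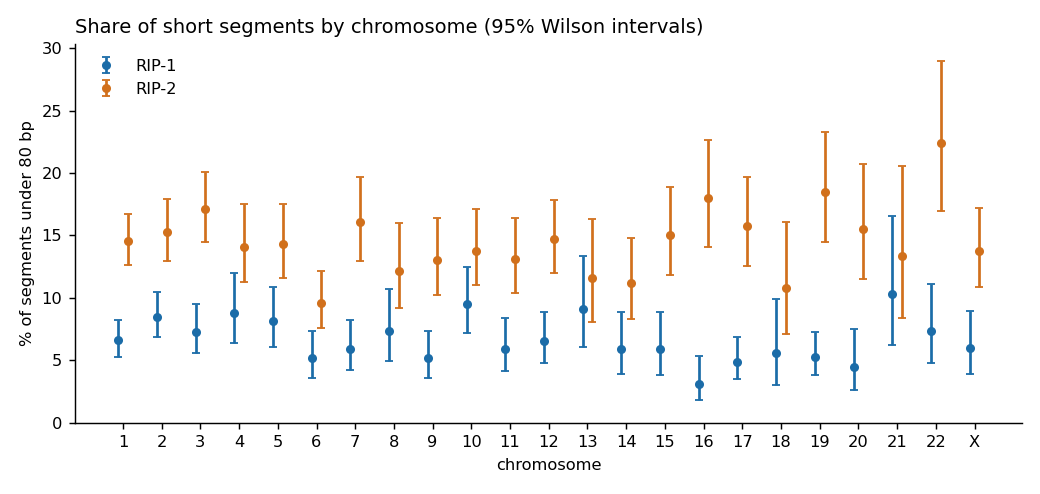
Percent of the mRNA-list segments of each chromosome that were under 80 bp, in RIP-1 (blue) and RIP-2 (orange), with 95% Wilson intervals; chromosome Y, which had none, is left out. RIP-2 lies above RIP-1 on all 23 chromosomes, as in the whole lists (14.4% against 6.55%), with the widest distance on chromosomes 16 and 22.

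About 1 in 5 short segments had a neighbour in its own list, a smaller share than in the lists as a whole. A neighbour was another mRNA-list segment of the same experiment and strand at a gap of at most 5 kb. In RIP-1, 141 of 718 short segments had one (19.6%, 16.9 to 22.7), where the whole list had 26.9%. In RIP-2, 284 of 1480 had one (19.2%, 17.3 to 21.3), where the whole list had 24.4%. Segments of 80 to 149 bp had 27.9% (26.3 to 29.7) and 25.6% (24.1 to 27.1), intervals that do not overlap those of the short segments. Within the short segments the share grew with length. It went from 10.8% under 30 bp (8 of 74, 5.58 to 19.9) over 17.2% at 30 to 59 bp (13.0 to 22.5) to 22.7% at 60 to 79 bp (18.9 to 27.0) in RIP-1. In RIP-2 the same classes had 14.4% (10.9 to 18.9), 18.5% (15.4 to 21.9) and 22.0% (18.9 to 25.3).

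**Figure D4:**
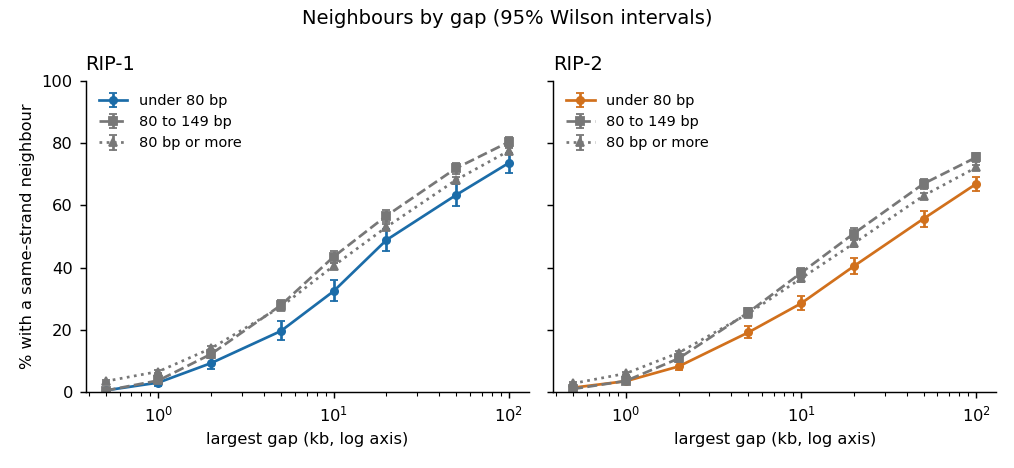
Percent of segments with a same-strand neighbour in the same list, by the largest gap allowed (0.5 to 100 kb, log axis), in RIP-1 (left) and RIP-2 (right), with 95% Wilson intervals. Coloured circles are segments under 80 bp, grey squares those of 80 to 149 bp and grey triangles all of 80 bp or more; at gaps from 5 kb upwards the short segments lie lowest in both panels.

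Neighbours were mostly over 1 kb away and mostly not short themselves. The median gap was 2031 bp in RIP-1 (interquartile range 1326 to 3032) and 2391 bp in RIP-2 (1228 to 3557.5), and 119 of the 141 and 232 of the 284 gaps were 1 kb or more. No short segment of RIP-1 and 6 of RIP-2 had a gap under 200 bp, beside 4 of the 746 and 4 of the 834 segments of 80 to 149 bp with a neighbour. Short segments were chosen by a width below that of any whole non-exon peak, so the number of small gaps is not independent of the rule. The nearest neighbour was itself short in 19 of 141 cases in RIP-1 (13.5%) and 62 of 284 in RIP-2 (21.8%). For the segments of 80 to 149 bp, a short one was nearest in 6.57% and 12.6% of cases. When the neighbour had to be short, the order of short segments and whole list turned: 2.92% of the short segments in RIP-1 (1.92 to 4.43) and 4.59% in RIP-2 (3.64 to 5.78) had one within 5 kb, where the whole lists had 1.63% and 3.11%. The segments of 80 to 149 bp had 2.40% (1.88 to 3.05) and 3.72% (3.12 to 4.42), which lie within the intervals of the short ones. A neighbour of any length within 1 kb was found for 3.06% (2.03 to 4.60) and 3.51% (2.69 to 4.58) of the short segments, near the 3.75% and 3.59% of the segments of 80 to 149 bp and below the 6.39% and 5.63% of the whole lists. Within 20 kb it was found for 48.9% (45.2 to 52.5) and 40.5% (38.0 to 43.0), where the whole lists had 52.8% and 46.8%.

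Chains of several short segments were rare. When segments of 1 strand were joined over gaps of at most 5 kb, 685 of the 718 RIP-1 short segments were the only short one in their chain, and 577 were alone altogether. In RIP-2 these numbers were 1408 and 1196 of 1480. Pairs of short segments stood in 15 RIP-1 chains and 33 RIP-2 chains. There were 3 short segments in 1 RIP-1 chain and in 2 RIP-2 chains. The RIP-1 chain of 3 lay at chr21:47409521-47411986 (plus strand). Its segments were 45, 63 and 63 bp long, with scores of 184, 82.6 and 96.2, at gaps of 1326 and 968 bp. The RIP-2 mRNA list had no segment of that strand within 50 kb of it, where 40.1% of all RIP-1 segments had one.

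Other RIP-1 chains mixed short and longer segments. At chr1:1454300-1463242 (plus strand), 6 segments followed each other at gaps of 939 to 2437 bp. Those of 70 and 52 bp scored 176 and 85.2, beside longer ones of 126 to 168 bp with scores of 130 to 428. At chr17:48458593-48474865 (minus strand), segments of 73 and 60 bp scored 292 and 102 among 4 longer ones, 1 of which was 2003 bp long with a score of 987. Neither chain had a RIP-2 segment of its strand within 50 kb. Most segments of the RIP-1 list had none either (40.1% had one), so this shows nothing particular to the chains.

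In RIP-2 a chain at chr20:5545662-5550885 (minus strand) held segments of 62, 30 and 53 bp with scores of 82.7, 53.2 and 51.0, beside 1 of 93 bp. The RIP-1 mRNA list had 2 segments of that strand within 50 kb of it, 1 of them short. A chain at chr15:43018546-43026544 (minus strand) held 5 segments, of which those of 69 and 76 bp scored 223 and 62.3. The RIP-1 mRNA list had no segment of that strand within 50 kb of it, where 48.4% of all RIP-2 segments had one. The remaining chain, on the minus strand of chromosome 2, was made of 3 segments of exactly 73 bp. They began at 96583602, 96587354 and 96591099, which are 3752 and 3745 bp apart, and scored 79.0, 83.1 and 57.4.

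Around these equal segments on chromosome 2 both lists held more of the same length. Within 50 kb on the minus strand, RIP-2 had 2 further segments of 73 bp, from 96555546 (score 71.2) and 96628099 (75.7), and 1 of 68 bp. RIP-1 had segments of 73 bp from 96585480 (score 497) and 96587354 (192) and 1 of 75 bp. The segment from 96587354 to 96587427 stood in both lists with the same edges. The start of the RIP-1 segment at 96585480 lay between those of the RIP-2 segments at 96583602 and 96587354. This region was followed further after its values were seen.

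The overlap between experiments asks which short segments lay in the peak calls of both. The control library of the calls is not stated, so overlap does not show recovery with SF3B4 over IgG or over input. A segment was called shared when at least 1 bp of it lay in a segment of the other mRNA list with the same strand. In RIP-1, 62 of 718 short segments were shared (8.64%, 6.79 to 10.9), beside 6.41% of the whole list and 6.26% of the longer segments (5.81 to 6.74). In RIP-2, 68 of 1480 were shared (4.59%, 3.64 to 5.78), beside 6.91% of the whole list and 7.30% of the longer segments (6.77 to 7.86). The short segments thus stood above the rest of the RIP-1 list and below the rest of the RIP-2 list. Both counts draw on the same overlapping pairs, and RIP-2 had more short segments to divide them by. Segments of 80 to 149 bp had 8.16% in RIP-1 (7.19 to 9.26) and 6.60% in RIP-2 (5.80 to 7.51), and the first of these lies within the interval of the short segments.

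By class of length, sharing in RIP-2 was 3.78% under 30 bp (2.12 to 6.64), 4.02% at 30 to 59 bp (2.67 to 6.01), 5.45% at 60 to 79 bp (3.95 to 7.49) and 8.02% at 300 bp or more (7.06 to 9.10). In RIP-1 it was 6.76% (2.92 to 14.9), 8.82% (5.84 to 13.1) and 8.87% (6.47 to 12.0) in the 3 short classes and 4.90% (4.31 to 5.58) at 300 bp or more. The order of the classes was thus opposite in the experiments at the long end. The shares were close for multiples of 3 and other lengths: in RIP-1, 8.27% of such short segments were shared (5.58 to 12.1) and 8.86% of the others (6.55 to 11.9), and in RIP-2 4.34% (2.93 to 6.38) and 4.75% (3.55 to 6.31).

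**Figure D5:**
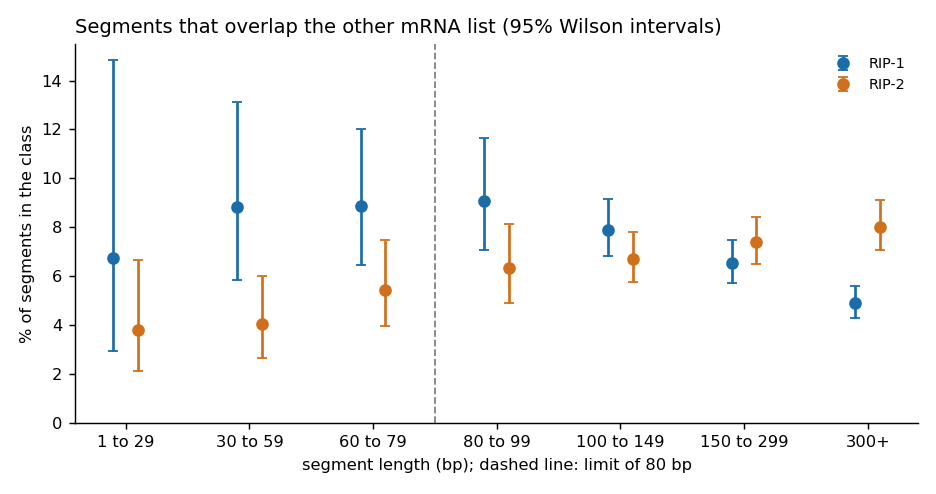
Percent of segments that overlap the mRNA list of the other experiment, by class of length, in RIP-1 (blue) and RIP-2 (orange), with 95% Wilson intervals; the dashed line is the limit of 80 bp. RIP-1 lies higher below 150 bp and RIP-2 higher above it, from 6.76% and 3.78% at 1 to 29 bp to 4.90% and 8.02% at 300 bp or more.

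Shared short segments mostly had the very same edges in both lists, as shared segments did in general. Of the shared short segments, 79.0% in RIP-1 (67.4 to 87.3) and 72.1% in RIP-2 (60.4 to 81.3) had both edges in common, where all shared segments had 66.6% and 65.9%. The segments of 80 to 149 bp had more, with 199 of 218 (91.3%, 86.8 to 94.3) and 199 of 215 (92.6%, 88.3 to 95.4). There were 72 overlapping pairs with at least 1 short member, and in 58 of them both were short. Both edges were identical in 49 pairs, which is 6.82% of the RIP-1 short segments (5.20 to 8.91), against 4.27% of the whole RIP-1 list, and 3.31% of the RIP-2 short segments (2.51 to 4.35), against 4.55% of the whole RIP-2 list. Each of the other 23 pairs had 1 edge in common, the 5′ edge in 12 and the 3′ edge in 11. So no short pair lacked a common edge (0 of 72), while 89 of the 638 pairs of longer segments did (13.9%, 11.5 to 16.9). Short segments were chosen by a width below that of any whole non-exon peak, so this contrast is not independent of the rule. It was not tested. In the 23 pairs the free edges lay 4 to 372 bp apart, with a median of 65 bp, and the RIP-1 segment was the longer one in 16. Among all 710 overlapping pairs of any length, the RIP-1 segment was the longer one in 150 and the RIP-2 segment in 92.

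The 49 identical segments were spread over 17 chromosomes, with 8 on chromosome 5, 5 on chromosome 3 and at most 4 on any other. Their lengths ran from 4 to 79 bp with a median of 65 bp, and only 3 were under 30 bp. Of the 49, 17 were multiples of 3, 20 left a remainder of 1 and 12 a remainder of 2. Their scores ran from 50.5 to 192 in RIP-1 (median 68.2) and from 50.3 to 353 in RIP-2 (median 77.1). The scores of the experiments had a Spearman rho of 0.0692 across these 49 pairs, and their log10 values a Pearson r of 0.0224, given as descriptions of segments from the same libraries. The smallest identical segment, 4 bp at chr1:144213125-144213129 (plus strand), scored 64.4 (RIP-1) and 353 (RIP-2).

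The 10 strongest pairs of short segments, ranked by the lower score of each pair, scored 79.3 to 192 (RIP-1) and 83.1 to 224 (RIP-2). The first was a 66 bp segment at chr5:131533898-131533964 (minus strand), which scored 170 (RIP-1) and 224 (RIP-2). The second was 57 bp at chr17:28499559-28499616 (plus strand), with 128 and 120. The next was 79 bp at chr12:122013685-122013764 (minus strand), with 139 and 119. A 69 bp segment followed at chr1:224868659-224868728 (plus strand), with 133 and 114. These 4 had the same edges in both lists. Of their lengths 3 (66, 57 and 69 bp) are multiples of 3, where 17 of all 49 identical segments were.

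The fifth pair was the only one of the 10 with unequal edges. On the plus strand of chromosome 7 both segments began at 87399896, and the RIP-1 segment ended at 87399945 (49 bp, score 128) and the RIP-2 segment at 87399916 (20 bp, score 113). On the plus strand of chromosome X a 78 bp segment from 24537049 to 24537127 scored 143 and 98.4. On the plus strand of chromosome 5 a 44 bp segment from 61781245 scored 98.2 and 137, and a 61 bp segment from 159462146 scored 81.0 and 141. The 73 bp segment on chromosome 2 from 96587354 scored 192 and 83.1, and a 58 bp segment on the plus strand of chromosome 6 from 52941283 scored 79.3 and 111. RIP-1 had the higher score in 6 of these 10 pairs and in 27 of all 58 pairs of short segments.

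Some pairs show a sliver in 1 experiment and a longer interval in the other, with 1 edge held in common; these were chosen after their values were seen. On the plus strand of chromosome 1 both lists had a start at 10186851, and the segment was 84 bp long in RIP-1 (score 73.2) and 2 bp in RIP-2 (score 163). On chromosome 3 both ended at 183361955, and the RIP-1 segment of 82 bp (73.6) met a RIP-2 segment of 4 bp (52.9). The reverse was seen on chromosome 1 from 36448221, where a RIP-1 segment of 19 bp (108) met a RIP-2 segment of 391 bp (65.1). The shorter interval had the higher score in 2 of these 3 pairs, a count over picked pairs that says nothing of the others. Of the 14 pairs with 1 short member, 10 had it in RIP-2, which held 1480 short segments against 718 in RIP-1.

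Shared and unshared short segments had similar median lengths and scores in RIP-1. In RIP-2 the shared ones were longer and scored lower at the median. In RIP-1 the median length was 63 bp in both, and the median scores were 67.6 for the 62 shared and 69.8 for the 656 unshared segments. In RIP-2 the median lengths were 60.5 bp for the 68 shared and 55 bp for the 1412 unshared segments, with median scores of 69.3 and 77.6.

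Some unshared short segments had a segment of the other experiment nearby. In RIP-1, 56 of the 656 (8.54%, 6.63 to 10.9) lay within 5 kb of a RIP-2 segment on their strand, and in RIP-2 106 of the 1412 (7.51%, 6.24 to 9.0) lay within 5 kb of a RIP-1 segment. All unshared segments had 6.95% in RIP-1 and 8.94% in RIP-2, so the short ones stood above that share in RIP-1 and below it in RIP-2, and it lay within the interval of the short ones in both. Counting shared ones, 45.4% of the RIP-1 short segments (41.8 to 49.1) and 42.8% of those in RIP-2 (40.3 to 45.4) had a segment of the other mRNA list within 50 kb, where the whole lists had 40.1% and 48.4%. The longer segments had 39.7% (38.8 to 40.7) and 49.4% (48.3 to 50.4). The short segments were thus above the longer ones in RIP-1 and below them in RIP-2, as with overlap.

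Short segments overlapped whole non-exon peaks of the other experiment rarely. In RIP-1, 5 of 718 did so (0.696%, 0.298 to 1.62), beside 0.164% of the whole list, and in RIP-2 2 of 1480 (0.135%, 0.0371 to 0.491), beside 0.214%. The 5 RIP-1 segments, named because they are few, were 64 bp on chromosome 1 from 109870159, 65 bp on chromosome 3 from 42555281, 72 bp on chromosome 3 from 81695542, 79 bp on chromosome 5 from 87524266 and 72 bp on chromosome X from 110978278. Their RIP-1 scores ran from 68.4 to 149, and the RIP-2 peaks over them were 329 to 2367 bp wide. The 2 RIP-2 segments were 38 bp on chromosome 15 from 70975096 and 59 bp on chromosome 3 from 33094982.

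A larger share of the short than of the longer RIP-1 segments had a non-exon peak of the other experiment nearby. The whole lists had 20.3% in RIP-1 and 12.0% in RIP-2 by that measure, and 18.6% and 40.2% for non-exon peaks of their own call. Within 5 kb, regardless of strand, 35.4% of the RIP-1 short segments had a RIP-2 non-exon peak (32.0 to 38.9), against 26.4% of the segments of 80 to 149 bp (24.8 to 28.1) and 19.2% of all longer ones (18.5 to 20.01). For RIP-2 short segments and RIP-1 non-exon peaks the values were 13.4% (11.7 to 15.2), 13.4% (12.2 to 14.6) and 11.7% (11.1 to 12.4). Within their own call, 23.8% of the short segments of RIP-1 (20.8 to 27.1) and 43.2% of those of RIP-2 (40.7 to 45.8) lay within 5 kb of a non-exon peak, against 18.2% (17.5 to 19.0) and 39.7% (38.7 to 40.7) of the longer ones. The RIP-2 non-exon list held 134094 peaks and the RIP-1 list 25797, so levels cannot be compared across the lists.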

How the data were processed

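The submitters' processing notes name hg19, HISAT2 2.0.4 and cutadapt 1.9.3, and per the labels the reads were paired-end and 150 bp long. Peak names carry the prefix of MACS, but the sources used here name neither its version and settings nor the control library. The authors deposited 4 peak lists without headers, 1 named mRNA and 1 named NotExon (here non-exon) per experiment. The deposited score follows MACS, as judged from its values. The lengths in the non-exon lists fit 1-based positions that include both ends; the base of the mRNA lists is not stated. Taking lengths as end minus start gave the excess of multiples of 3 reported for both lists.

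Overlaps, gaps and shares were computed in Python 3.11.15 with pandas 2.3.3 and scipy 1.17.1, and the interval functions were tested on simulated data. Intervals are Wilson intervals at 95%. Segments to be named were chosen by a rule: the 10 short pairs with the highest lower score, and in each list the 5 highest scores, the 3 shortest and the 3 chains with the most short segments; exceptions are marked. The members, limits and lists were chosen with earlier results of these data known.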

Additional observations from a re-analysis of the deposited data

How the results depend on the processing

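Of 66 alternative values, 39 stayed within the 95% interval of the reported value (counts within 1.5 times) and 27 moved further; without chromosome 5, a choice made after seeing the data, sharing was among the 39. By construction, the number of short segments became 312 in RIP-1 and 838 in RIP-2 under 60 bp, 1323 and 2380 under 100 bp, and 258 and 698 in the upper 50% by score. Under 60 bp, 15.7% and 17.1% had a neighbour, and identical edges made up 54.5% of the shared RIP-2 segments; under 100 bp, 22.8% in RIP-1 had a neighbour. With 1 added to every length, multiples of 3 fell to 29.9% and 29.7%, below the 33.3% of equal remainders, so the direction of that result rests on taking length as end minus start. In the upper 50% by score of both lists, 16.7% and 9.31% had a neighbour and 3.49% and 1.29% were shared, with identical edges in 88.9% of the 9 shared segments of each list. Possible neighbours and partners were cut to the upper 50% as well, so lower shares follow by construction. Against the whole other list, 8.14% (21 of 258) in RIP-1 and 3.58% (25 of 698) in RIP-2 were shared. A neighbour was found for 3.06% and 3.51% within 1 kb, for 48.9% and 40.5% within 20 kb, and for 2.92% and 4.59% when it had to be short itself, where the share of the whole lists was lower (1.63% and 3.11%). With at least 50% of both segments overlapping, 3.58% of the RIP-2 short segments were shared. At least 1 identical edge was found in 100% of the shared short segments of each list. No paired analysis was possible because the lists hold no values per library. Depth is unknown and limits every comparison of RIP-1 with RIP-2.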
